A study of Mus musculus with 18 samples.

Results

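The growth hormone receptor and IGF axis was described in the liver by 10 genes chosen by name: *Igf1*, *Ghr*, *Stat5b*, *Socs2*, *Cish*, *Igfals*, *Igfbp1*, *Igfbp2*, *Igfbp3* and *Igfbp4*. They are 10 of the 23352 gene symbols in the tables, each has 1 entry, and none has a failed estimate. Poly(A) RNA was sequenced from the livers of 18 male mice aged 20 weeks, 1 library per mouse, and given as FPKM, the reads of a gene scaled to transcript length and to the mapped reads of a library. All mice were fed a high-fat diet (HFD), and 9 were wild-type (WT) and 9 were *Gpr180*KO. The *Gpr180*KO mice carry a CRISPR/Cas9 deletion of exon 6 of *Gpr180*, made in C57BL/6J eggs and bred to homozygosity, in every tissue, so that a difference in the liver need not arise in liver cells. Normal diet livers were not analysed here.

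Growth hormone from the pituitary binds its receptor GHR on hepatocytes, which activates the kinase JAK2 and the transcription factor STAT5b. STAT5b induces *Igf1* and *Igfals*, whose products circulate in a ternary complex with IGFBP3, and also *Socs2* and *Cish*, whose products damp the receptor's signal. Hepatic *Igfbp1* and *Igfbp2* are known to be repressed by insulin, and IGFBP4 binds IGFs outside the ternary complex.

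The check of the knockout showed *Gpr180* at 4.46 to 9.24 FPKM in the WT livers and at 0.876 to 1.99 FPKM in the *Gpr180*KO livers, with no overlap (log2 difference -2.00, adjusted p = 4.74e-06 by limma). The titles of the samples come in 2 styles, here called title series 1 (4 mice per genotype) and title series 2 (5 mice per genotype), and they were treated as possible batches. FPKM summed to between 554796 and 718746 per library, with the highest sum in the *Gpr180*KO mouse KO51, and the tables give no read counts. Over the 10835 genes with a mean of at least 1 FPKM, the median log2 difference between *Gpr180*KO and WT was -0.127, and median-of-ratios scaling brought it to -0.00521, so differences are also given below after that scaling. In bulk liver, fewer cells of a type and less RNA per cell cannot be told apart. Replicates were separate mice.

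Upstream sequences of 9 of the 10 members were matched in RefSeq (GRCm38.p6), and *Socs2* was not matched. The palindrome TTCNNNGAA, the general form of a STAT site, was searched on both strands in the 250 bases before each annotated start, where 7.02% of all 32851 such windows hold it. It was in 2 of the 3 *Igfals* windows and in no window of the other matched members. The only *Igf1* window, chr10:87860861-87861110, lies downstream of where the *Igf1* entry in the tables begins (chr10:87859056), so the bases before that start were not searched. The forkhead core GTAAACA (3.17% of windows) was in 1 *Igfals* window, and CAAAACAA (2.21% of windows), the core of an insulin response element, was in the *Igfbp1* window. No match overlapped another. Such matches are letters and not shown sites. Below are the window of the first start of *Igfbp2*, the member that differed between genotypes, and windows of *Igfals* and *Igfbp1*, which hold matches. Capitals mark the matches, which lie at -242 to -236 (GTAAACA, as its reverse complement) and -58 to -50 (TTCNNNGAA) from the second *Igfals* start, and at -108 to -101 (CAAAACAA) from the *Igfbp1* start. The window of the first *Igfbp2* start, with no match, is chr1:72824230-72824479. That of the second *Igfals* start is chr17:24877981-24878230 and that of *Igfbp1* chr11:7197537-7197786, all on the plus strand. A second *Igfbp2* start, with its window at chr1:72825137-72825386, had no match either and is not printed.
Igfbp2: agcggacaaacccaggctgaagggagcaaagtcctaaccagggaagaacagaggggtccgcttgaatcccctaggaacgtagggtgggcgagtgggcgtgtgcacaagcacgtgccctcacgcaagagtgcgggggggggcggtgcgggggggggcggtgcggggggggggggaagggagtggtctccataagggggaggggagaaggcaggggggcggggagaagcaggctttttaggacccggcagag
Igfals, second start: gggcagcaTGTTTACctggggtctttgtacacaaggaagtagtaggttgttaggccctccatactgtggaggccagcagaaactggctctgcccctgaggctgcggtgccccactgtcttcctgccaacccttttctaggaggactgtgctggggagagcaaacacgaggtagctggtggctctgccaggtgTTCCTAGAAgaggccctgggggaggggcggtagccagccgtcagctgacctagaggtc
Igfbp1: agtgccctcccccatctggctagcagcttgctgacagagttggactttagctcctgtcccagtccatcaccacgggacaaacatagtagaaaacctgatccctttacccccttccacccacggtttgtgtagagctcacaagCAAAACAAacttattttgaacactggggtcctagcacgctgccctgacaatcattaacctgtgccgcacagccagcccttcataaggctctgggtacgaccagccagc
The other *Igfals* match, TTCTCAGAA, lies at -236 to -228 from the first start. The entry of *Igfals* in the tables begins at chr17:24878770, nearest to the third RefSeq start, whose window had no match.

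Among the 10 members, 1 was higher in *Gpr180*KO livers (*Igfbp2*) and 0 were lower by limma with Benjamini-Hochberg adjustment over all 10835 genes, while of all genes 0.452% were higher and 4.28% lower. After median-of-ratios scaling the same 1 member was higher and 0 were lower, while of all genes 1.04% were higher and 1.55% lower. At an unadjusted p under 0.05, 1 member was lower (*Igfbp3*; 19.6% of all genes) and 1 was higher (*Igfbp2*; 2.54% of all genes). The median log2 difference of the members was 0.01, or 0.14 after median-of-ratios scaling. The other 9 members did not pass the threshold, with log2 differences from -0.36 (*Igfbp3*) to 0.23 (*Cish*), or from -0.24 (*Igfbp3*) to 0.35 (*Cish*) after median-of-ratios scaling. For none of the 10 did the difference itself differ between the title series described above at the threshold, the lowest adjusted p of the limma interaction term being 0.667 (*Igf1*). Their precision differed widely, from a 95% confidence interval of -0.12 to 0.17 for *Ghr* to one of -1.44 to 1.90 for *Cish*.

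**Figure D1:**
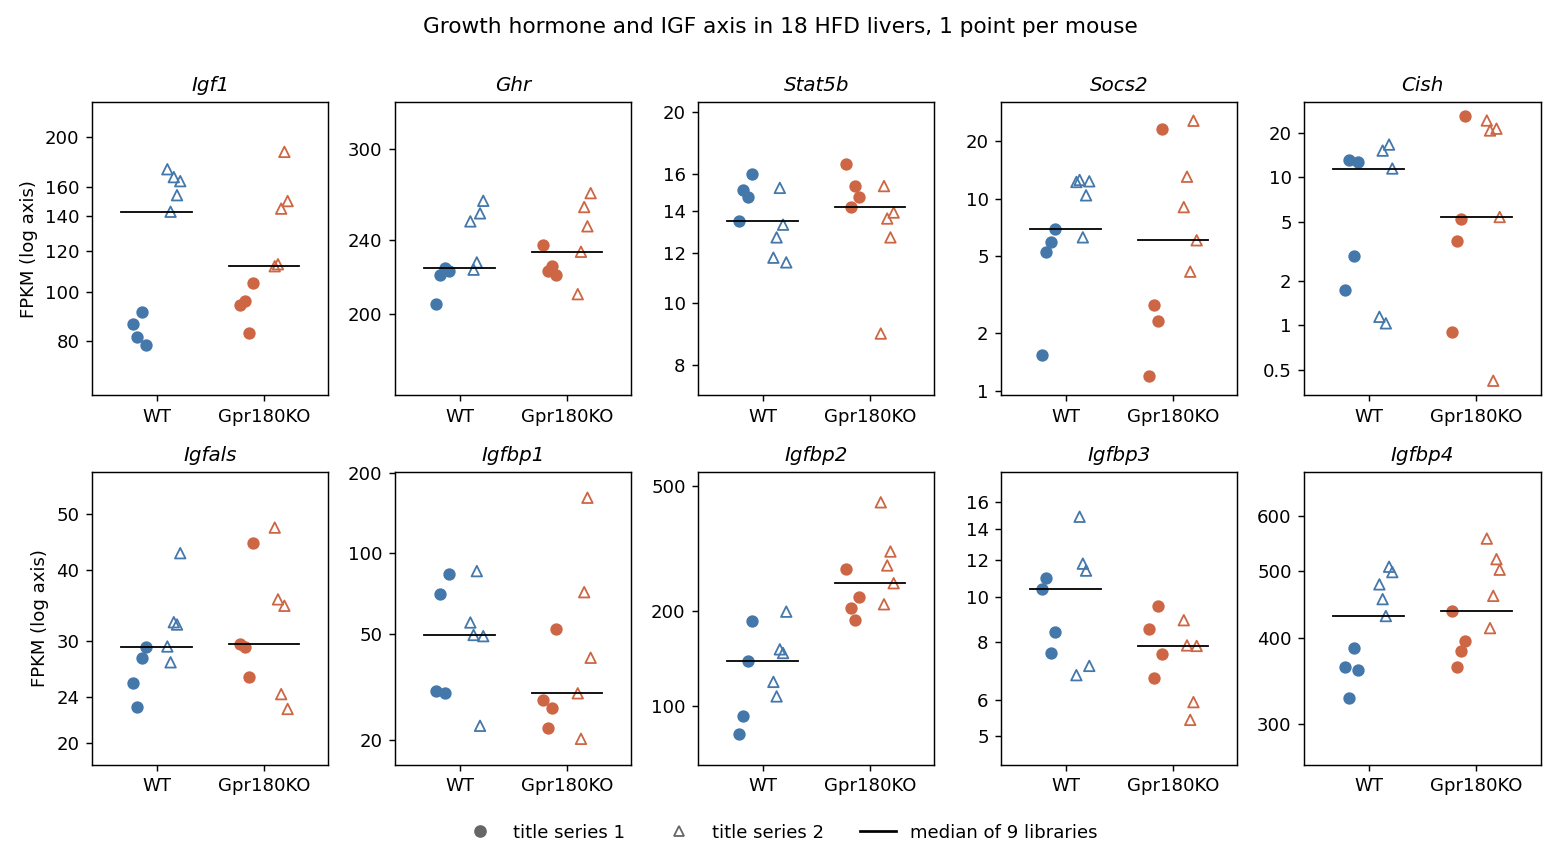
FPKM of the 10 members on log axes, 1 point per mouse, for WT (blue) and *Gpr180*KO (orange) livers. Filled circles are title series 1, open triangles title series 2 and bars the medians of 9 libraries. For *Igfbp2*, 8 of the 9 *Gpr180*KO points lie above all WT points, whereas for *Igf1* the 2 title series separate within each genotype.

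*Igf1* (chr10:87859056-87937047) encodes the circulating ligand through which much of growth hormone's effect on growth passes. Its level ran from 78.6 FPKM over a median of 143 FPKM to 173 FPKM in WT livers, and from 83.1 over 112 to 187 FPKM in *Gpr180*KO livers. The means were 127 ± 41.1 FPKM and 121 ± 33.5 FPKM (SD, n = 9 each). The genotypes overlapped, with 1 *Gpr180*KO liver (KO54) above all WT livers and 2 WT livers below all *Gpr180*KO livers. The log2 difference was -0.04 (95% confidence interval -0.45 to 0.36, adjusted p = 0.904). Median-of-ratios scaling gave 0.08. With the title series as a block the log2 difference was again -0.04, with a narrower 95% confidence interval of -0.25 to 0.16 (limma adjusted p = 0.785).

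*Igf1* separated the 2 title series in both genotypes. In WT livers it had 78.6 to 91.3 FPKM in title series 1 (84.4 ± 5.55, SD, n = 4) and 143 to 173 FPKM in title series 2 (161 ± 11.9, SD, n = 5). In *Gpr180*KO livers it had 83.1 to 104 FPKM (94.2 ± 8.49, SD, n = 4) and 112 to 187 FPKM (142 ± 30.6, SD, n = 5). No library of title series 1 reached any of title series 2 in either genotype, a pattern that 0.36% of the 10835 genes shared in this direction and 3.73% in the other. *Igf1* was the single member with such a separation, and its log2 difference between title series was 0.75. The log2 difference between genotypes was 0.16 in title series 1 and -0.20 in title series 2, and their difference of -0.36 had an adjusted p of 0.667 (limma interaction term, unadjusted 0.0605). What the title styles stand for is not given in the labels, and its part in the result was not tested.

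*Ghr* (chr15:3317760-3583230, minus strand), the receptor, was the steadiest member. It had 205, 224 and 264 FPKM (lowest, median and highest) in WT livers and 210, 233 and 269 FPKM in *Gpr180*KO livers. The coefficients of variation were 8.51% and 8.22%, the smallest of the 10 members in both genotypes. The ranges covered each other almost wholly, and the log2 difference was 0.02 (95% confidence interval -0.12 to 0.17, adjusted p = 0.858). After median-of-ratios scaling it was 0.15 (adjusted p = 0.393).

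*Stat5b* (chr11:100780731-100850585, minus strand), which carries the signal to the nucleus, lay at 11.6, 13.5 and 16.0 FPKM in WT livers and at 8.96, 14.2 and 16.6 FPKM in *Gpr180*KO livers. KO51 had the lowest value, below every other library. The log2 difference was 0.00 (95% confidence interval -0.21 to 0.22, adjusted p = 0.982) with KO51 and 0.08 without it.

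The feedback inhibitors *Socs2* and *Cish* varied most from mouse to mouse. *Socs2* (chr10:95411490-95416857) had 1.53, 6.98 and 12.5 FPKM in WT livers and 1.19, 6.07 and 25.4 FPKM in *Gpr180*KO livers, so the highest liver exceeded the lowest 8.16-fold and 21.4-fold. *Cish* (chr9:107296689-107301961) had 1.03, 11.5 and 16.7 FPKM in WT livers and 0.421, 5.4 and 25.9 FPKM in *Gpr180*KO livers, which are ranges of 16.2-fold and 61.5-fold. In both genes the *Gpr180*KO livers reached both lower and higher than the WT livers: 3 *Gpr180*KO livers were above all WT livers for *Socs2* and 4 for *Cish*, and 1 and 2 were below all WT livers. The means were 8.15 ± 3.86 and 9.67 ± 9.06 FPKM for *Socs2* (SD, n = 9 each). For *Cish* they were 8.46 ± 6.59 and 12 ± 10.8 FPKM (SD, n = 9 each). The log2 difference was -0.17 for *Socs2* (95% confidence interval -1.27 to 0.94, adjusted p = 0.866). For *Cish* it was 0.23 (95% confidence interval -1.44 to 1.90, adjusted p = 0.877). The confidence limits that accompany each FPKM in the tables, whose level is not stated, had half-widths of 7.31 to 44.5% of their midpoint for *Socs2* and 7.97 to 46.0% for *Cish*, widest at the lowest values, so the range between mice was larger than these limits.

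*Socs2* and *Cish* varied together. After the mean of each genotype in each title series was subtracted, their log2 values had Pearson's r = 0.72 over the 18 livers (permutation p = 0.00068, adjusted p = 0.00408 over 6 pairs of members). Spearman's rho was 0.67 (permutation p = 0.00333, adjusted p = 0.02). Without KO319 and W317, the livers farthest from the median of *Socs2*, r was 0.64 (permutation adjusted p = 0.0356) and rho 0.65 (permutation adjusted p = 0.103). Within *Gpr180*KO livers r was 0.81 (exact permutation adjusted p = 0.0479, n = 9) and within WT livers 0.55 (exact permutation adjusted p = 0.211, n = 9). Within title series 1 and 2 r was 0.87 and 0.69 (exact permutation adjusted p = 0.0625, n = 8, and 0.295, n = 10). The sign was the same in every subset, while the smaller subsets other than the *Gpr180*KO livers did not pass the threshold.

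**Figure D2:**
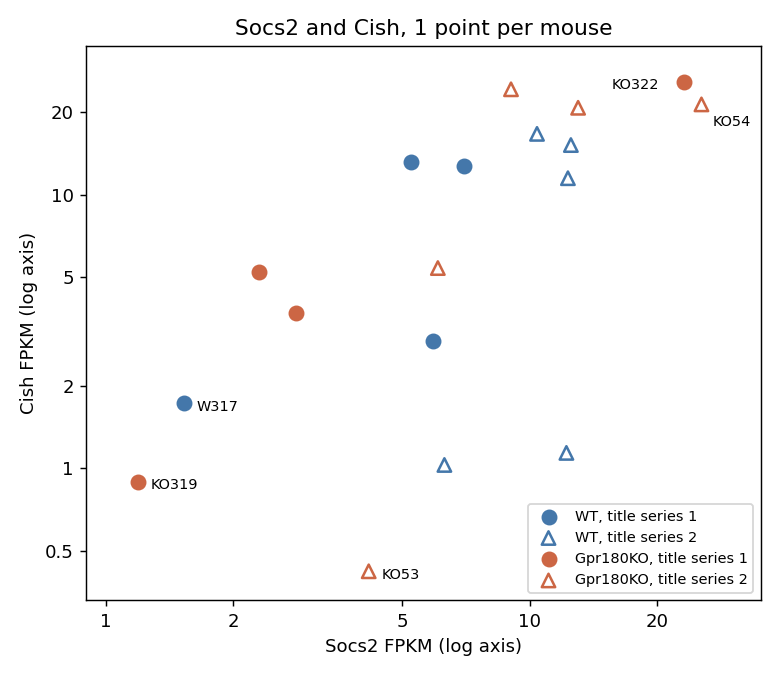
*Cish* against *Socs2*, both in FPKM on log axes, 1 point per mouse, with genotype by colour and title series by marker. KO322 and KO54 are high in both genes and KO319 and W317 low in both, whereas 2 WT livers of title series 2 combine 6.29 and 12.2 FPKM of *Socs2* with 1.03 and 1.14 FPKM of *Cish*.

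The other 5 pairs did not pass. *Cish* and *Igf1*, both STAT5b targets, had r = -0.25 and rho = -0.30 (permutation adjusted p = 0.605 and 0.561). *Igf1* and *Igfals* had r = -0.11 and rho = -0.05 (permutation adjusted p = 0.768 and 0.878). *Ghr* had r = 0.48 and rho = 0.40 with *Igf1* (permutation adjusted p = 0.502 and 0.498), and r = 0.38 and rho = 0.21 with *Stat5b* (permutation adjusted p = 0.563 and 0.59). *Igfbp1* and *Igfbp2* had r = 0.19 and rho = 0.20 (permutation adjusted p = 0.605 and 0.59). *Socs2* with *Cish* was the single pair past the threshold. Libraries shared their scaling in each of these relations, and after median-of-ratios scaling r of *Socs2* and *Cish* was 0.72 (permutation adjusted p = 0.00342) and rho 0.63 (permutation adjusted p = 0.0512).

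As a description over the 18 livers, after genotype means but not title series were removed, the genes most like *Socs2* among the 10835 were *2810474O19Rik* (r = 0.90), *Hhex* (r = 0.87) and *Wdr45b* (r = 0.86). Those most like *Cish* were *Rgs3* (r = 0.93), *Chac1* (r = 0.91) and *Foxa2* (r = 0.91). Those most like *Igf1* were *Tmem69* (r = 0.94), *C8b* (r = 0.94) and *Serbp1* (r = 0.93). The points share libraries and title series, and the *Igf1* values hold the separation of the title series. *C8b*, which encodes a subunit of the terminal complement complex, ran from 15.1 to 167 FPKM.

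*Igfals* encodes the acid-labile subunit, which holds IGF1 and IGFBP3 in the long-lived ternary complex. It had 23.1, 29.3 and 42.7 FPKM in WT livers and 22.9, 29.7 and 47.3 FPKM in *Gpr180*KO livers. The means of 30.0 ± 5.59 and 32.7 ± 8.63 FPKM (SD, n = 9 each) lay within each other's spread, with a log2 difference of 0.10 (95% confidence interval -0.19 to 0.39, adjusted p = 0.682).

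Of the binding proteins, *Igfbp2* (chr1:72824480-72852471, plus strand) rose in *Gpr180*KO livers. IGFBP2 is an abundant circulating carrier of IGF1 and IGF2 that is made by hepatocytes. *Igfbp2* had 81.1, 139 and 199 FPKM in WT livers and 187, 245 and 443 FPKM in *Gpr180*KO livers, with KO51 highest. The WT livers at 199 FPKM (W157) and 186 FPKM (W320) were the nearest to the *Gpr180*KO range: 8 *Gpr180*KO livers lay above all WT livers, and all 9 above the WT median. Of all genes, 0.0554% had no overlap in this direction, and *Igfbp2* was not among them. The means were 136 ± 40.1 and 263 ± 78.3 FPKM (SD, n = 9 each), a log2 difference of 0.96 (SE 0.18, 95% confidence interval 0.59 to 1.34) or 1.95-fold, with an adjusted p of 0.0124 (limma). After median-of-ratios scaling the log2 difference was 1.09 (adjusted p = 0.0159).

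The difference in *Igfbp2* had the same sign in both title series. In title series 1 the means were 125 ± 47.9 FPKM in WT and 221 ± 36.9 FPKM in *Gpr180*KO livers (SD, n = 4 each), and the log2 difference was 0.89 (limma adjusted p = 0.0566). In title series 2 they were 145 ± 35.7 and 297 ± 89.6 FPKM (SD, n = 5 each), and it was 1.02 (limma adjusted p = 0.0905). Neither series passed the threshold alone, and with the title series as a block the adjusted p was 0.00369. The interaction term was 0.14 (95% confidence interval -0.59 to 0.86, adjusted p = 0.93). Leaving out each library in turn gave log2 differences from 0.86 (without KO51) to 1.04 (without W157), and all 18 fits passed the threshold. In KO51 the summed level of 8 hepatocyte markers was also the highest, and this sum ranged from 15444 to 18235 FPKM in WT and from 16938 to 29588 FPKM in *Gpr180*KO livers. By limma 0 of the 8 passed the threshold in either direction, with 1 higher at an unadjusted p under 0.05 (2.54% of all genes), and the 3 with the lowest p were *Serpina1a* (0.42), *Tat* (0.54) and *Cps1* (0.40). *Serpina1a*, which encodes the secreted antitrypsin of hepatocytes, had an adjusted p of 0.0605, and it passed with the title series as a block (0.0148) and in title series 1 alone (0.0375), where *Cps1* also passed (0.0133). The part of these levels in the *Igfbp2* difference was not tested, and without KO51 that difference was 0.86 as given.

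**Figure D3:**
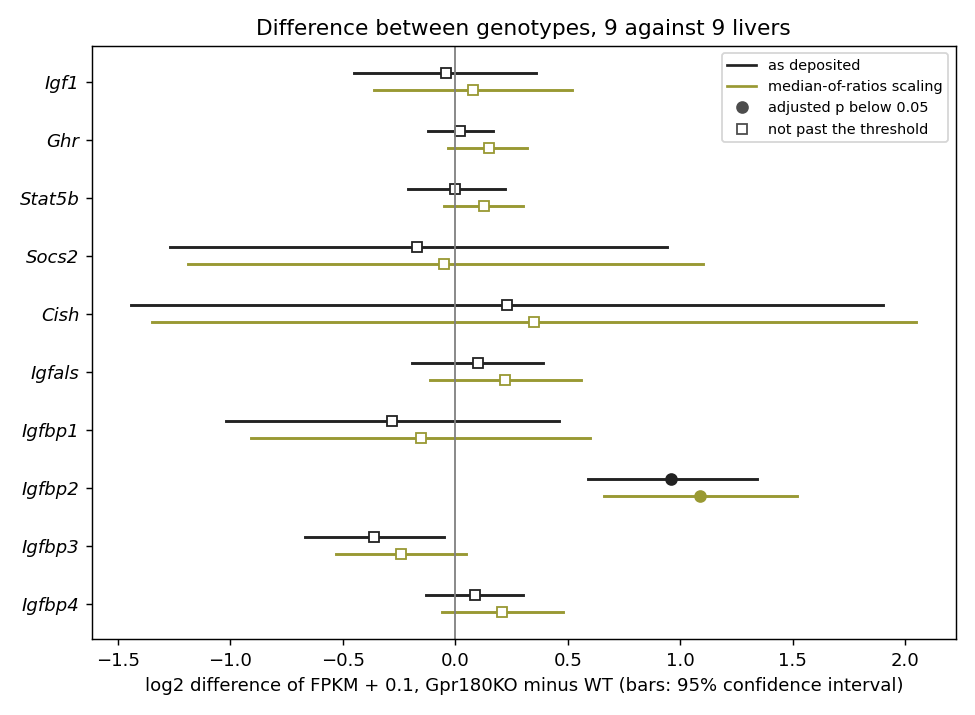
Log2 difference between *Gpr180*KO and WT livers for the 10 members, with 95% confidence intervals from limma, as deposited (black) and after median-of-ratios scaling (olive). *Igfbp2*, at 0.96 and 1.09, is past the threshold on both scales, and the intervals of *Cish* and *Socs2* are the widest.

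*Igfbp1* (chr11:7197787-7202546, plus strand), an acute, insulin-repressed regulator of free IGF1, was not past the threshold. It had 22.6, 49.4 and 85.6 FPKM in WT livers and 20.2, 29.9 and 161 FPKM in *Gpr180*KO livers. KO54 alone was above all WT livers and 2 *Gpr180*KO livers were below all of them. The log2 difference was -0.28 (95% confidence interval -1.02 to 0.46, adjusted p = 0.653), with the direction turning to 0.03 in title series 2 alone. The means were 52.9 ± 23.1 and 50.2 ± 44.6 FPKM (SD, n = 9 each).

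*Igfbp3* (chr11:7206091-7213923, minus strand) lies 3544 bases from *Igfbp1* by the coordinates in the tables and encodes the main carrier of the ternary complex, which in the liver is known mainly from cells other than hepatocytes. It had 6.78, 10.4 and 14.9 FPKM in WT livers and 5.43, 7.84 and 9.57 FPKM in *Gpr180*KO livers. No *Gpr180*KO liver exceeded the WT median, and 5 WT livers lay above all *Gpr180*KO livers. The means were 9.93 ± 2.68 and 7.59 ± 1.37 FPKM (SD, n = 9 each), and the log2 difference of -0.36 (95% confidence interval -0.67 to -0.05) did not pass the threshold (adjusted p = 0.163). After median-of-ratios scaling it was -0.24 (adjusted p = 0.413).

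Some markers of cells other than hepatocytes fell in the *Gpr180*KO livers. Of 8 stellate cell markers, 4 were lower, against 4.28% of all genes: *Dcn* fell by 0.68, *Lum* by 1.41, *Col3a1* by 1.73 and *Pdgfrb* by 0.82 on the log2 scale (adjusted p = 0.00631, 0.00631, 0.0132 and 0.0175, each past the threshold also after median-of-ratios scaling). The first 3 of these are matrix genes that fibroblasts of other kinds also express. The summed level of the 8 ran from 225 to 334 FPKM in WT and from 117 to 211 FPKM in *Gpr180*KO livers, with no overlap and no marker at 0 in all libraries. *Dcn*, whose means of 144 and 89.7 FPKM were the highest of the 8, by itself had no overlap, as had 0.175% of all genes in this direction. The other 4 did not pass: *Reln* (-0.56), *Lrat* (-0.31), *Ecm1* (-0.13) and *Des* (-0.08). After median-of-ratios scaling *Ecm1* and *Des* were at -0.01 and 0.04. Of 8 endothelial markers, 0 passed the limma threshold in either direction and 0 had an unadjusted p under 0.05. All 8 had a log2 difference below 0, as did 76.9% of all genes, and *Kdr* and *Clec4g* were above 0 after median-of-ratios scaling (0.04 and 0.07). The sum of the 8 ran from 119 to 196 FPKM in WT and from 111 to 170 FPKM in *Gpr180*KO livers. The 3 with the lowest p were *Cdh5* (-0.29), *Lyve1* (-0.39) and *Pecam1* (-0.23). Of 6 biliary markers 2 were tested and both fell, *Spp1* by 1.96 and *Sox9* by 0.70 on the log2 scale (adjusted p = 0.00701 and 0.0454). *Spp1* had 36.8 to 223 FPKM in WT livers, whereas *Krt7*, *Krt19*, *Epcam* and *Cldn7* were below the minimum level. The part of biliary cells in the *Spp1* difference was not tested. After median-of-ratios scaling *Spp1* passed (limma adjusted p = 0.0137) and *Sox9* did not (limma adjusted p = 0.121). *Sox9* passed in 4 of the 18 fits that left out a library, those without KO51, KO56, W157 or W319 (log2 differences -0.78 to -0.61, adjusted p up to 0.0942 over the 18). The 6 lymphocyte markers were all below the minimum level, with sums of 1.69 to 6.21 and 1.65 to 4.19 FPKM. The part of these cell types in the *Igfbp3* values was not tested.

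*Igfbp4* (chr11:99041260-99052643, plus strand) was the member with the highest FPKM, at 327, 430 and 507 in WT and 363, 438 and 557 in *Gpr180*KO livers. The means of 423 ± 66.2 and 448 ± 66.8 FPKM (SD, n = 9 each) differed by 0.09 on the log2 scale (95% confidence interval -0.13 to 0.30, adjusted p = 0.638). As with *Igf1*, the WT livers of title series 1 (327 to 387 FPKM) lay below those of title series 2 (430 to 507 FPKM), but in the *Gpr180*KO livers the series overlapped.

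FPKM is a level per transcript length and allows the members to be ordered. In WT livers the order by mean was *Igfbp4*, *Ghr*, *Igfbp2*, *Igf1*, *Igfbp1*, *Igfals*, *Stat5b*, *Igfbp3*, *Cish* and *Socs2*. The ranges did not overlap between *Igfbp4* and *Ghr*, *Ghr* and *Igfbp2*, or *Igfals* and *Stat5b*, and every other pair of neighbours overlapped. In *Gpr180*KO livers *Igfbp2*, at a mean of 263 FPKM, stood beside *Ghr* at 236 FPKM, and *Igfbp2* was above *Ghr* in 5 of the 9 livers. In WT livers *Ghr* was above *Igfbp2* in all 9. *Igfbp3* moved from above *Cish* and *Socs2* in the WT order to the last place in the *Gpr180*KO order, but these 3 ranges overlapped in both genotypes. In the tables, 52 of the 180 member values lie outside their own confidence limits, including all 18 of *Igfbp2* and all 18 of *Igfbp4*, against 9.83% of all values above 0. For *Igfbp2* and *Igfbp4* the limits lie below the FPKM in both genotypes. Of the 5 *Gpr180*KO livers with *Igfbp2* above *Ghr* by FPKM, the limits of *Igfbp2* lay wholly above those of *Ghr* in KO51 alone. They overlapped in KO319 and KO54 and lay below in KO322 and KO53, so the order of these 2 genes is uncertain there.

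Of 32 other genes of growth hormone and IGF signalling, 23 were tested, 1 fell and 0 rose, against 4.28% and 0.452% of all genes, so the share that fell was near that of all genes. The 1 was *Sirpa*, a transmembrane glycoprotein that binds the phosphatases SHP1 and SHP2 and is abundant on macrophages. It had 5.26 to 15.3 FPKM in WT livers and 4.67 to 7.36 FPKM in *Gpr180*KO livers (log2 difference -0.64, 95% confidence interval -0.98 to -0.30, adjusted p = 0.0337). After median-of-ratios scaling *Sirpa* no longer passed (log2 difference -0.52, adjusted p = 0.0677). Nor did it pass without KO52, KO53, KO54, KO56, W133, W317, W318 or W320, with adjusted p values up to 0.0749 and log2 differences from -0.74 to -0.55 over all 18 omissions. Within title series 1 and 2 its log2 differences were -0.63 and -0.64. The summed level of 8 Kupffer cell markers ran from 121 to 301 FPKM in WT and from 151 to 220 FPKM in *Gpr180*KO livers, and 0 of the 8 passed the limma threshold or had an unadjusted p under 0.05. The 3 with the lowest p were *Vsig4* (-0.23), *Adgre1* (-0.29) and *Cd5l* (-0.20). In title series 1 alone *Adgre1* passed (log2 difference -0.45, limma adjusted p = 0.0375), as did *Sirpa* (limma adjusted p = 0.047), and no other of the 8 markers did. In title series 2 alone neither gene passed (limma adjusted p = 0.828 for *Adgre1* and 0.2 for *Sirpa*). The part of macrophages in the *Sirpa* difference was not tested.

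The 23 had a median log2 difference of -0.20 against -0.127 for all genes, and of -0.08 after median-of-ratios scaling. Those of the core cascade did not pass: *Jak2* (log2 difference -0.21, adjusted p = 0.335), *Stat5a* (-0.22, adjusted p = 0.378), *Stat3* (-0.22, adjusted p = 0.334) and *Socs3* (0.55, adjusted p = 0.259). The same held for the receptors *Insr* (-0.05, adjusted p = 0.849), *Igf2r* (-0.24, adjusted p = 0.416) and *Prlr* (-0.19, adjusted p = 0.664). *Igfbp7*, a further binding protein known from endothelial and stellate cells, had 71.1 to 122 FPKM in WT and 48.6 to 104 FPKM in *Gpr180*KO livers (log2 difference -0.43, adjusted p = 0.0671). With the title series as a block *Igfbp7* passed (adjusted p = 0.0495), and after median-of-ratios scaling its adjusted p was 0.236. These 8 genes were chosen for their roles after their values were seen. The 9 genes below the minimum level included *Igf2*, which had at most 0.168 FPKM, and *Igf1r*, the receptor of IGF1. *Igf1r* had 0.234 to 0.369 FPKM in WT livers and 0.102 to 0.226 FPKM in *Gpr180*KO livers, with no overlap (0.175% of the genes tested had none in this direction), and was singled out after its values were seen. With no minimum level its log2 difference was -0.46 (adjusted p = 0.0298) on a scale that understates the change of low genes.

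The temporal pattern of growth hormone in male and female rodents sets sex-biased expression of liver genes through STAT5b, so 2 lists of such genes were read as further targets of the axis. Both lists were drawn up with earlier results of these data known. Of 13 male-biased genes tested, 2 rose and 0 fell in *Gpr180*KO livers, against 0.452% and 4.28% of all genes. *Elovl3*, a fatty acid elongase, had means of 101 ± 38.0 FPKM in WT and 189 ± 50.2 FPKM in *Gpr180*KO livers (SD, n = 9 each), and 7 *Gpr180*KO livers lay above all WT livers. Its log2 difference was 0.96 (95% confidence interval 0.50 to 1.41, limma adjusted p = 0.0219). It passed in all 18 fits that left out a library. *Cyp7b1*, an oxysterol hydroxylase of bile acid synthesis, had 22.0 to 56.8 FPKM and 32.3 to 144 FPKM (log2 difference 0.81, 95% confidence interval 0.33 to 1.28, adjusted p = 0.0464). *Cyp7b1* passed in 6 of those 18 fits, those without KO319, KO321, KO56, W131, W134 or W157, with log2 differences from 0.65 to 0.92 and adjusted p values up to 0.102.

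*Hsd3b5*, a steroid dehydrogenase of male liver, ran from 0.283 to 65.2 FPKM in WT livers and from 2.33 FPKM upwards in *Gpr180*KO livers, 4 of which lay above all WT livers (log2 difference 3.51, 95% confidence interval 1.30 to 5.72, adjusted p = 0.0591). It was chosen after its values were seen. The median log2 difference of the 13 genes was 0.39, or 0.51 after median-of-ratios scaling, and 10 of 13 were above 0, against 23.1% of all genes. The 3 below 0 were *Mup20* (-0.38), *Susd4* (-0.13) and *Ugt2b38* (-0.08), none past the threshold. With the title series as a block 4 of the 13 genes rose, against 1.13% of all genes in that fit, and in title series 2 alone 0 did, where 0 genes of all rose. Within title series 1 and 2 the log2 differences were 0.73 and 1.14 for *Elovl3* and 0.61 and 0.97 for *Cyp7b1*. After median-of-ratios scaling both passed, at 1.08 for *Elovl3* and 0.93 for *Cyp7b1* (limma adjusted p = 0.0243 and 0.0487).

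Of 12 female-biased genes tested, 3 fell and 0 rose, against 4.28% and 0.452% of all genes. *Cyp3a41a*, a steroid-metabolising P450 of female liver, had 8.71 to 26.7 FPKM in WT and 3.82 to 11.3 FPKM in *Gpr180*KO livers, and 8 *Gpr180*KO livers lay below all WT livers. Its log2 difference was -1.39 (95% confidence interval -1.90 to -0.88, adjusted p = 0.00726). *Cyp3a44*, of the same family, had 7.25 to 15.7 FPKM and 2.75 to 10.6 FPKM (log2 difference -0.98, 95% confidence interval -1.42 to -0.55, adjusted p = 0.0167). Both passed in all 18 fits that left out a library. *Ntrk2*, a neurotrophin receptor, had 0.506 to 3.12 FPKM and 0.115 to 2.59 FPKM (log2 difference -1.50, adjusted p = 0.047). *Ntrk2* passed in 4 of those 18 fits, those without KO321, KO56, W157 or W319, and its adjusted p after median-of-ratios scaling was 0.0805.

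The median log2 difference of the 12 genes was -0.93, or -0.81 after median-of-ratios scaling, and 8 of 12 were below 0, against 76.9% of all genes. The 4 above 0 were *Cyp17a1* (0.49), *Cyp2c69* (0.24), *Cyp2b10* (0.16) and *Cyp2c40* (0.13), none past the threshold. At an unadjusted limma p under 0.05, 8 of the 12 were lower and 2 higher (*Cyp17a1* and *Cyp2c69*), against 19.6% and 2.54% of all genes. *Cyp2b9* ran from 1.11 to 168 FPKM in WT and from 0.117 to 29.1 FPKM in *Gpr180*KO livers (log2 difference -3.51, adjusted p = 0.0894) and was chosen after its values were seen. With the title series as a block 8 of the 12 genes fell, against 9.52% of all genes in that fit, and in title series 2 alone 0 did, against 0.00932% (1 gene) of all. Within title series 1 and 2 the log2 differences were -0.98 and -1.72 for *Cyp3a41a* and -0.51 and -1.36 for *Cyp3a44*. After median-of-ratios scaling both passed, at -1.27 for *Cyp3a41a* and -0.86 for *Cyp3a44* (limma adjusted p = 0.0211 and 0.0262). The *Cyp3a* and *Cyp2b* genes have near-identical copies, and reads could have been divided between them in the authors' counting, so values of single copies are uncertain. These livers are all male, and no female liver was analysed here.

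**Figure D4:**
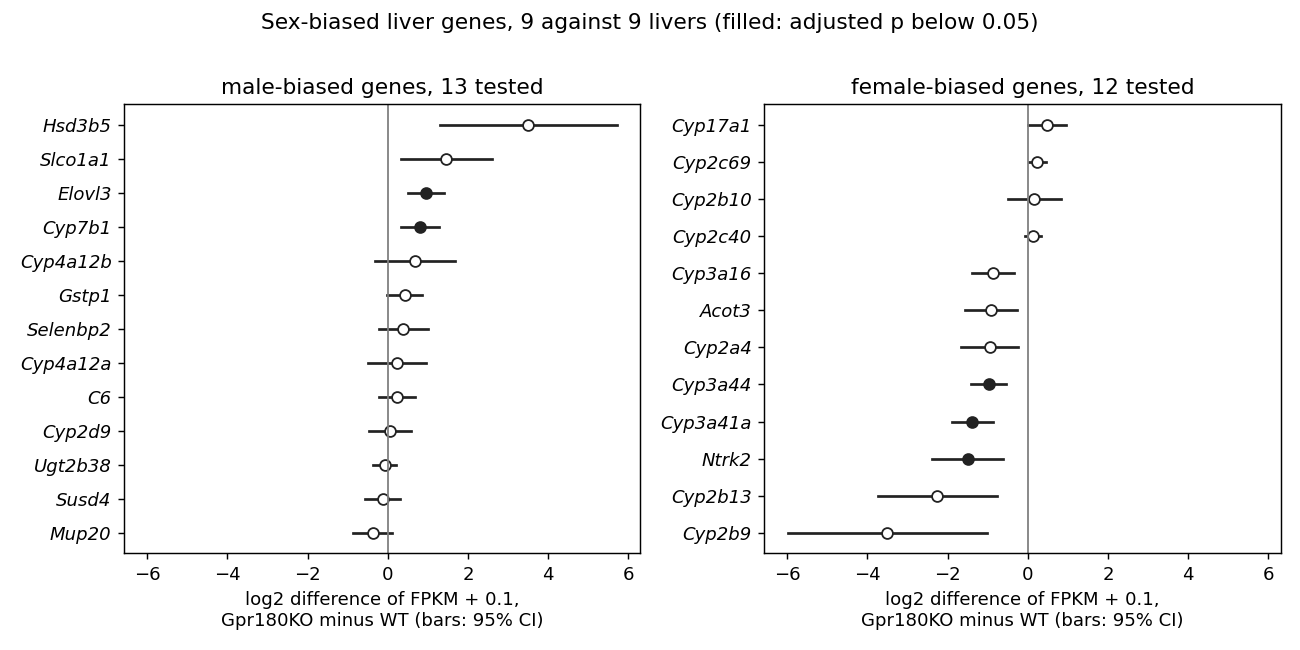
Log2 difference between *Gpr180*KO and WT livers for 13 male-biased (left) and 12 female-biased genes (right), with 95% confidence intervals from limma. Filled points are past the threshold: *Elovl3* and *Cyp7b1* above 0, and *Cyp3a44*, *Cyp3a41a* and *Ntrk2* below 0.

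As *Igfbp1* and *Igfbp2* are also under insulin, 8 genes responsive to fasting and insulin were read beside them, and 0 passed the limma threshold, with 2 lower and 1 higher at an unadjusted p under 0.05 (19.6% and 2.54% of all genes). *Pck1* and *Sesn1* had the lowest p. *Pck1*, a rate-limiting enzyme of gluconeogenesis, had 252 to 841 FPKM in WT and 482 to 1079 FPKM in *Gpr180*KO livers (log2 difference 0.71, 95% confidence interval 0.26 to 1.16, adjusted p = 0.0613). *Sesn1*, a FOXO target, had a log2 difference of -0.31 (adjusted p = 0.0821). With the title series as a block *Pck1* and *Sesn1* passed (adjusted p = 0.0268 and 0.0242), in a fit that called 1.13% of all genes higher and 9.52% lower. After median-of-ratios scaling neither passed, with log2 differences of 0.83 for *Pck1* and -0.19 for *Sesn1* (limma adjusted p = 0.0515 and 0.297). With that scaling and the block *Pck1* passed and *Sesn1* did not (limma adjusted p = 0.0177 and 0.213). Of the 18 fits that left out a library, *Pck1* passed in 3 and *Sesn1* in 1. How long the mice had been without food when the livers were taken is not given in the labels, and its part in these values was not tested.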

How the data were processed

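Liver poly(A) libraries were prepared by the authors with a TruSeq kit and sequenced as single reads. TopHat and the builds GRCm38 and mm10 are named in the submitters' processing notes and the study's methods. The authors deposited 1 table of FPKM values per mouse, with confidence limits and a status per value, and the gene annotation is not given in the sources used here. Per the file headers no read counts are given, which leaves the depth behind each value unstated, and no count model was fitted. The limits in the tables are those of the authors' estimate, and no interval or floor was computed from depth. Each table has 23847 entries. Entries of 1 symbol were summed, and 24 genes with a failed estimate in any library (190 values) were left out, none of them a member. The correlation of log2(FPKM + 0.1) across genes was 0.9675 to 0.9932 over the 153 pairs of libraries.

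Genotype was taken from the sample labels. Differences were *Gpr180*KO minus WT on log2(FPKM + 0.1), a scale that understates the change of low genes, by limma 3.58.1 in R 4.3.3 (lmFit, eBayes with trend) for genes with a mean of at least 1 FPKM. Adjustment (Benjamini-Hochberg) ran over all genes tested, with a threshold of 0.05. Pairs of members were tested by two-sided permutation within genotype and title series, with Python 3.11.15, numpy 2.4.6, pandas 2.3.3 and scipy 1.17.1. The permutations were 100000 resamples, and were exact in the subsets of 1 genotype or 1 title series. Figures were drawn with matplotlib 3.10.9. The main limma fit and the test of pairs were tested on simulated data, and the other steps were not.

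The members and the lists were chosen with earlier results of these data known. Named were the 10 members, *Gpr180*, every list gene past the threshold, the 3 with the lowest p in lists with none (1 gene responsive to fasting and insulin is not reported here), and the 3 genes most like *Igf1*, *Socs2* and *Cish*. Of the listed genes, *Cyp3a41b* was not analysed here, and *Adgre1* was matched by its older symbol. Alternatives were pseudocounts of 1 and 0.01, a minimum of 5 FPKM or none, median-of-ratios and 75th percentile scaling, title series as a block, each title series alone, weights per library, eBayes without trend, and each library left out. Median-of-ratios scaling with the title series as a block was added after the data were seen. Replicate numbers pair no mice.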

Additional observations from a re-analysis of the deposited data

Results flagged for a closer look

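In 20 groups of 9 livers, 1 for each member and genotype, a liver was sought whose gap to its nearest neighbour on the log2(FPKM + 0.1) scale took more of the range of its group than Dixon's 95% critical value for 9 values allows, which chance gives in about 1 of 20 groups. There were 2. *Stat5b* in KO51, at 8.96 FPKM, lay below the other *Gpr180*KO livers by 0.56 of their range, and without KO51 its log2 difference between genotypes was 0.08. KO51 was also the library with the highest summed FPKM, and gaps were sought on the FPKM as deposited only. *Socs2* in W317, at 1.53 FPKM, lay below the other WT livers by 0.58 of their range, and without W317 its log2 difference was -0.43.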

How the results depend on the processing

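*Igfbp2* was the single member called in all fits of the 18 livers and in all 18 that left out a library. In title series 1 alone 0 members were higher, and in title series 2 alone 0, both with fewer mice. No member was lower in any fit. Of the other growth hormone and IGF pathway genes (1 lower), 2 were lower with no minimum level, 0 with median-of-ratios and 0 with 75th percentile scaling, 2 with the title series as a block, 3 with weights per library, 0 in title series 2 alone and 0 to 4 with a library left out, and 1 was higher with median-of-ratios scaling and the block. Of the male-biased genes (2 higher), 1 was higher at a minimum of 5 FPKM, with no minimum, with 75th percentile scaling and without trend, 4 with the block, with weights and with median-of-ratios scaling and the block, 0 in title series 2 alone and 1 to 4 with a library left out. Of the female-biased genes (3 lower), 8 were lower with the block, 6 with median-of-ratios scaling and the block, 0 in title series 2 alone and 2 to 5 with a library left out. Of the fasting and insulin genes, 1 was lower with the block, with weights and in title series 1 alone, 1 was higher in the same fits and with median-of-ratios scaling and the block, and 0 to 1 in each direction with a library left out. The log2 differences that changed sign were those of members that did not pass. *Igf1* had 0.08 with median-of-ratios scaling, also with the block, 0.05 with 75th percentile scaling, 0.01 with weights and 0.16 in title series 1. In title series 2 *Ghr* had -0.00, *Stat5b* -0.02, *Igfals* -0.03 and *Igfbp1* 0.03, and in title series 1 *Cish* had -0.21. With a library left out *Igf1* ran from -0.13 to 0.02, *Ghr* from -0.00 to 0.05, *Stat5b* from -0.03 to 0.08 (those below 0 up to -0.00), *Socs2* from -0.43 to 0.12 and *Cish* from -0.05 (next -0.04) to 0.68, with those below 0 up to -0.01. For *Socs2* and *Cish*, r was 0.55 in WT livers, 0.87 in title series 1 and 0.69 in title series 2, none past the threshold there. For *Igf1* and *Igfals*, r turned to 0.11 with median-of-ratios scaling, 0.26 in WT livers and 0.66 in title series 1. For *Ghr*, r turned to -0.20 with *Igf1* in title series 1 and to -0.30 with *Stat5b* in WT livers. Beyond the smaller samples, the cause of these changes was not tested. Over all genes, 464 were lower and 49 higher, against 168 and 112 with median-of-ratios scaling, 1031 and 122 with the block, 1161 and 170 with weights, 200 and 38 at a minimum of 5 FPKM, 211 and 108 with 75th percentile scaling, 386 and 248 with median-of-ratios scaling and the block, 577 and 116 in title series 1 and 1 and 0 in title series 2. With a library left out, 113 (without W133) to 843 (without W157) were lower. No paired analysis was possible because the replicate numbers are those of separate mice in accession order. The files hold no read counts, so depth sets no stated limit.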

Other observations

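Single *Gpr180*KO livers were extreme in several members at once. KO54 was the highest *Gpr180*KO liver for *Igf1* (187 FPKM), *Socs2* (25.4 FPKM) and *Igfbp1* (161 FPKM). KO51 was the highest for *Igfbp2* (443 FPKM), *Igfbp4* (557 FPKM) and *Igfals* (47.3 FPKM) and the lowest for *Ghr* (210 FPKM) and *Stat5b* (8.96 FPKM). KO51 was also an extreme library as a whole, with the highest summed FPKM (718746) and the lowest factor in median-of-ratios scaling (0.856). The part of this in its member values was not tested. KO53 was the lowest for *Cish* (0.421 FPKM) and *Igfbp3* (5.43 FPKM).

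*Moxd1*, a copper-dependent monooxygenase and a male-biased gene below the minimum level, had at most 0.0467 FPKM in WT livers. In 3 *Gpr180*KO livers it was above that, with 11.3 FPKM in the highest. It was singled out after its values were seen, and it was not tested.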
